A study of Glycine max with 23 samples.

Results

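Transcript levels of LAX11 and AUX22, a pair of auxin genes, were followed through the young soybean seed (Glycine max, cultivar Asgrow A3237) with 1-colour Affymetrix arrays of short oligonucleotides. The members were every probe set that the platform annotation, checked by gene ID against RefSeq (assembly Glycine_max_v4.0), ties to 1 gene of either name. That gave 2 of the 37593 soybean probe sets, 1 for LAX11 (NCBI gene ID 100792491) and 1 for AUX22 (gene ID 547784). The pair was selected on signals of these same arrays: LAX11 on its endosperm signal against embryo proper and suspensor, and AUX22 possibly on its level in the seed coat regions or the whole seed. Seeds with heart-stage embryos were fixed and cut at 8 µm, and laser capture gave 5 seed coat regions with 2 arrays each (endothelium, inner integument, epidermis, hilum and outer integument), and the endosperm, the embryo proper and the suspensor with 3 arrays each. Ground whole seeds of the same stage and young trifoliate leaves were measured on 2 arrays each. All 23 arrays came from plants of the 1 cultivar kept at 22 °C under 16 h days, with no treatment named. Replicates are called biological in the labels but are not tied to plants, so a p-value covers the spread between samples alone. Array signals have no molecule counts behind them, and the small number of arrays limits precision.

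Auxin, chiefly indole-3-acetic acid, moves between cells through carriers. AUX1/LAX proteins take it up across the plasma membrane and PIN proteins let it out, so that the set of carriers in a tissue shapes where the hormone collects. Inside the nucleus, TIR1/AFB receptors bind auxin together with Aux/IAA repressors, which are then degraded, and many Aux/IAA genes are themselves induced by auxin within minutes. LAX11 belongs to the uptake carriers. AUX22 is an Aux/IAA gene that was first isolated from soybean as an auxin-induced transcript. In seeds, auxin is known for its part in embryo patterning, in early endosperm growth and in the growth of the seed coat after fertilisation.

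Signals are the deposited intensities, in array units that share 1 scale across arrays. The background of an array was the 95th percentile of its probe sets for soybean pathogens, and lay between 86.3 and 231.4 except on suspensor replicate 1 (420.1) and endosperm replicate 1 (404.9). The median r between arrays was 0.92 within groups and 0.809 between groups, over soybean probe sets. The coat markers MADS28, AGL1L and PIP2-8, taken from an earlier account of these data, were above background on all 10 coat arrays. Since they came from the same data, this is not an independent check of the capture. PIP2-8 was not confined to the coat: leaves averaged 23030, above the endothelium (10500) and the hilum (11960). ANR1 and DFR1, genes of anthocyanidin and dihydroflavonol reductases and 2 of 5 listed markers of inner coat layers with a probe set, went against that list. Their summed signal was 1085 to 9001 in the endothelium and 295.9 to 1175 in the inner integument, against 16820 to 26600 in the hilum and 27660 to 27920 in the epidermis. The 4 measured embryo markers of 7 were above background on every embryo proper array, but only H1 and PHANa were brightest there. LEC1-A averaged 4937 in the embryo proper and 11470 in the suspensor, and WRI1B 1914 in the endosperm and 1460 in the embryo proper. No marker sure enough was listed for endosperm or suspensor. In tissue samples such as these, fewer cells of a type and less RNA per cell cannot be told apart.

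LAX11 was a transcript of the endosperm and, at a lower level, of the embryo proper. Its signal in the endosperm was 13790.4, 22714 and 6733.3 in replicates 1 to 3, and in the embryo proper 3685.2, 4638.6 and 2441.3. Suspensor arrays had 641.2, 1128 and 539. These 3 groups did not overlap. In the seed coat the endothelium, the innermost layer, had 1267.8 and 1985.9, the epidermis 598.8 and 802.7, and the hilum, where the seed joins the pod, 649.8 and 388.1. The inner integument had 468.3 and 280.7 and the outer integument 258.4 and 159.8, the lowest pair of all. Whole seeds had 1092.7 and 1533 and leaves 903.9 and 1141.6. LAX11 was above background on all 23 arrays, by least on outer integument replicate 2 (background 138.5), inner integument replicate 2 (231.4) and suspensor replicate 1 (420.1).

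**Figure D1:**
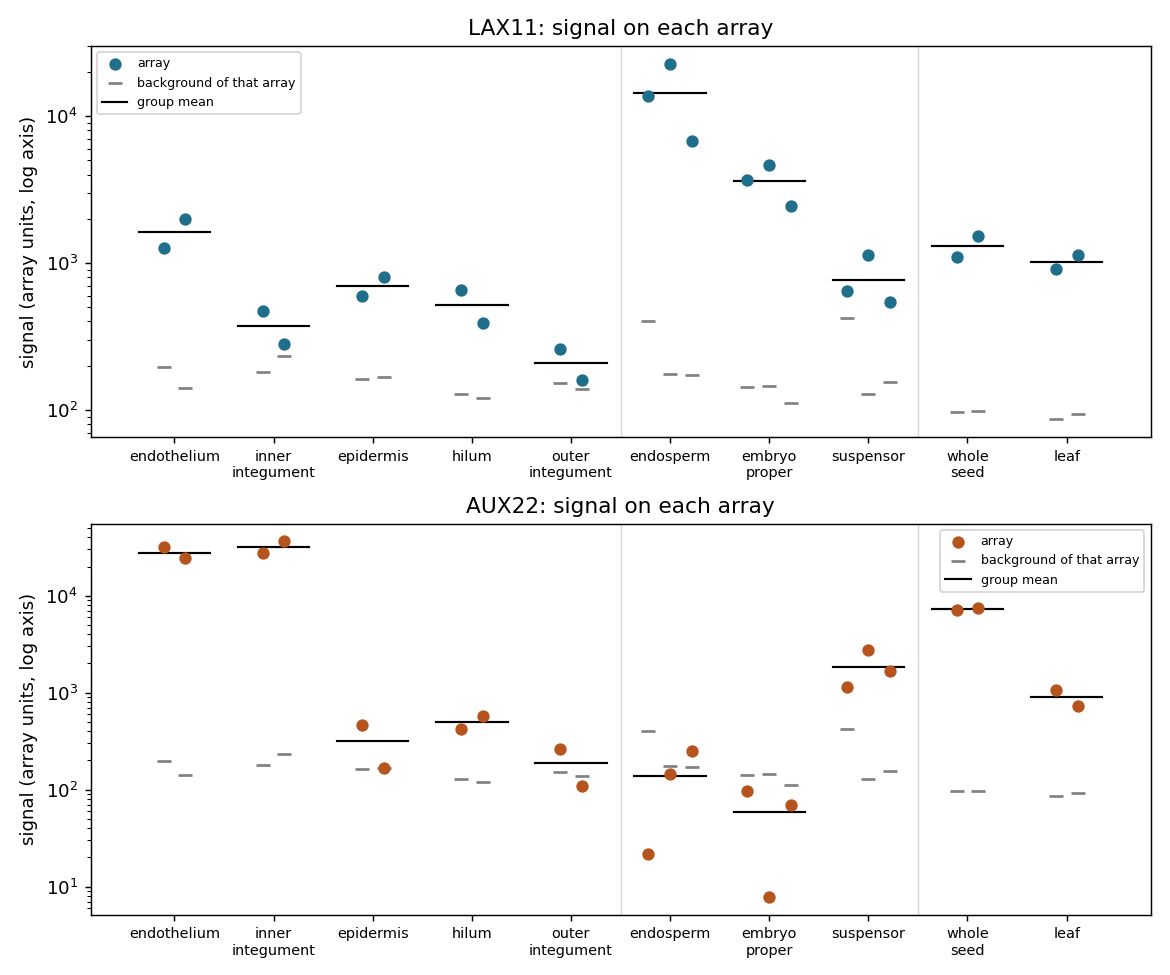
Signal of LAX11 (top) and AUX22 (bottom) on each array by group, on a log axis in array units. Points are arrays, black bars are group means and grey ticks are the background of each array; LAX11 is brightest on the 3 endosperm arrays (6733.3 to 22714) and AUX22 on the 4 arrays of endothelium and inner integument.

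Because LAX11 was selected on its endosperm signal, the endosperm differences are given without a test. Differences and folds are of log2(signal + 16) group means from 1 linear model over all arrays, which understates changes of dim genes. Endosperm exceeded the mean of embryo proper and suspensor by 2.99 ± 0.36 (log2, SE), 7.96-fold. Set against each of them, endosperm exceeded the embryo proper by 1.88 ± 0.42, 3.68-fold, and the suspensor by 4.10 ± 0.42, 17.2-fold. The endosperm arrays themselves spanned 3.37-fold. Their lowest was replicate 3, captured with another microscope model. Without it the endosperm difference was 3.46, and without replicate 2, the brightest, 2.58.

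Down the order of levels the gaps closed quickly. The embryo proper stood 1.12 ± 0.47 above the endothelium with no overlap of arrays, a 95% interval of 0.15 to 2.09. From the endothelium through whole seed, leaf, suspensor, epidermis and hilum to the inner integument, each group overlapped the next and each interval of the difference included 0. The inner integument stood 0.79 above the outer integument without overlap, and there too the interval (−0.28 to 1.85) included 0.

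The embryo proper against the suspensor asks how the embryo itself differs from the stalk that joins it to the maternal tissue. In Arabidopsis, auxin flow along this axis is tied to early embryo patterning. Both genes were called, in opposite directions: LAX11 rose in the embryo proper and AUX22 fell. A call here means an adjusted p below 0.05 and at least 2-fold, and 23.1% of the 25686 tested probe sets were called in this comparison, 12.7% as higher and 10.4% as lower in the embryo proper. LAX11 was 4.66-fold higher in the embryo proper (log2 difference 2.22 ± 0.42, limma with Benjamini-Hochberg adjustment, adjusted p = 0.000401, 3 arrays each), with all 3 embryo proper arrays above all 3 suspensor arrays. These same arrays stood on the other side when LAX11 was selected on its endosperm signal. What AUX22 was selected on is not fully known. The p-values of both genes in this comparison are therefore not shown to be free of that choice.

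AUX22 was below background on all 3 embryo proper arrays (97.5, 7.8 and 69.4), against 1142.3, 2728.2 and 1662.1 in the suspensor. It was at least 11.8-fold lower in the embryo proper, a bound set by the background of those arrays (limma adjusted p = 4.8e-06, 3 arrays each). Beside this suspensor signal stand the transcripts of the maternal coat. AUX22 in the suspensor was 5.77% of its level in its richest coat region, the inner integument. The richest region differed between genes. AGL1L stood at 10.8%, ANR1 at 7.64% and MADS28 at 4.70% of their hilum level. DFR1 stood at 3.63% of its epidermis level and the aquaporin gene PIP2-8 at 0.279% of its outer integument level. PIP2-8 was above background on 1 of the 3 suspensor arrays, and ANR1 and MADS28 on 2. The summed signal of AGL1L, MADS28 and PIP2-8 was 866.9 to 4030 on suspensor arrays and 275.1 to 447.6 on embryo proper arrays, with 23870 to 82610 across the coat regions. The part of coat transcripts in the suspensor level of AUX22 was not tested.

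AUX22 was high in the endothelium (31547.7 and 24270.2) and in the inner integument (27647.5 and 36287.7), adjacent inner layers of the seed coat. The other coat regions were far below: the hilum had 420 and 574.6, the epidermis 464.7 and 166.7, and the outer integument 265.4 and 108.3, with outer integument replicate 2 below background. Whole seeds had 7162.9 and 7423.7, below both inner layers and above every other group. Leaves had 1077.2 and 721. In the endosperm, which lies against the endothelium, the signals were 21.6, 145.7 and 249.1, and replicate 3 alone was above background. The inner layers are named as the labels give them, and ANR1 and DFR1 were not brightest in them.

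The members' levels across the coat regions are described without a test, since either gene may have been proposed from them. Endothelium and inner integument did not separate for AUX22 (difference −0.19 ± 0.76, 95% interval −1.77 to 1.38, arrays overlapping). The other side of the next differences was partly below background, and folds are given with each such array set at its background. So taken, the inner integument exceeded the outer integument by at least 152-fold and the endothelium exceeded the endosperm by at least 99.9-fold. Endothelium exceeded whole seed by 1.92 ± 0.76 and whole seed exceeded suspensor by 2.06 ± 0.69, each without overlap. Suspensor, leaf and hilum followed with no overlap between neighbours, but the interval of each of those differences included 0, as did those from hilum down to embryo proper, where neighbours overlapped and signals from the outer integument down were mostly below background.

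LAX11 differed between the inner layers where AUX22 did not separate them. For LAX11 the endothelium exceeded the inner integument by 2.08 ± 0.51, 4.23-fold, without overlap. The mean LAX11 signal of the endothelium was 11.3% of that of the endosperm beside it. On the same endothelium arrays LEC1-A was at 3.17% and WRI1B at 2.87% of their endosperm level, both below background on both arrays, while PHANa was at 15.5% and H1 was below background. PHANa was higher in every other coat region (means 874.2 to 1525) than in the endothelium (362), so its share cannot gauge neighbouring endosperm. No list of endosperm markers was available, and the part of neighbouring endosperm in the endothelium level of LAX11 was not tested.

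**Figure D2:**
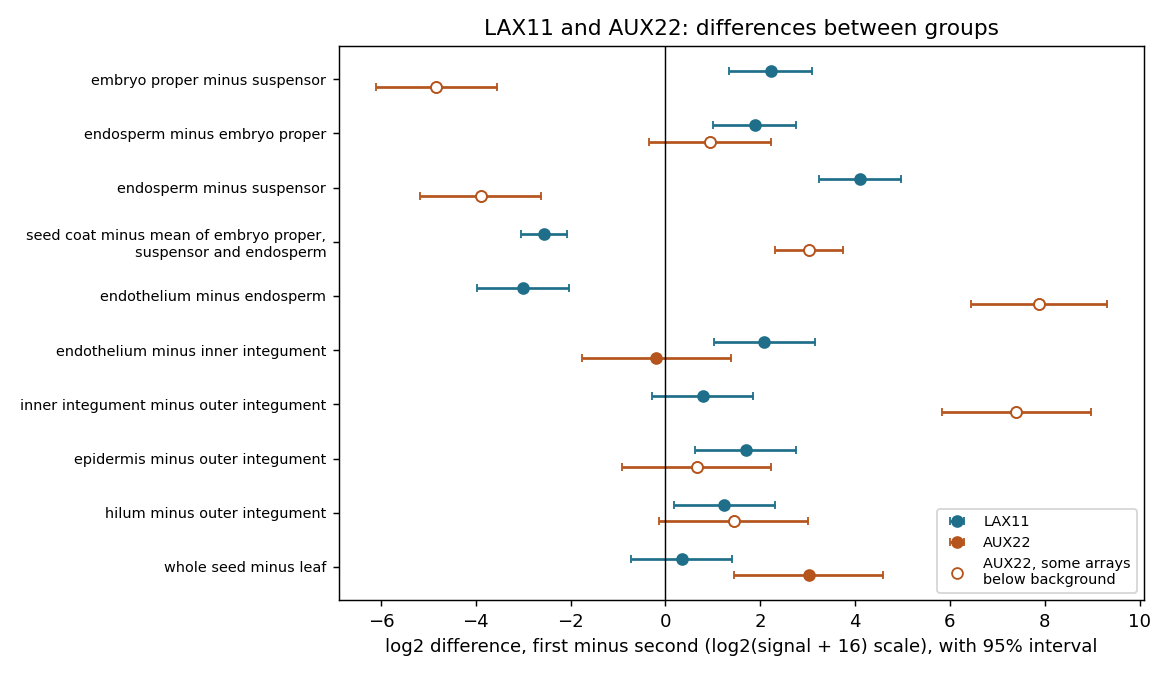
Differences of LAX11 and AUX22 between groups, on the log2(signal + 16) scale, first group minus second, with 95% intervals from the linear model. Open points involve arrays below background, where the size is not measured. LAX11 was higher in embryo proper than in suspensor (2.22) and AUX22 lower (at least 11.8-fold). The LAX11 estimate for inner minus outer integument was 0.79, with an interval that included 0.

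Seed coat against filial tissue is given as a description, since AUX22 may have been selected on these coat arrays and LAX11 was on the endosperm. With each of the 5 regions weighted equally, AUX22 was at least 4.57-fold higher in the coat than in the mean of endosperm, embryo proper and suspensor, with the 5 of 9 filial arrays below background set there. The arrays overlapped, at 108.3 to 36287.7 in the coat against 7.8 to 2728.2 in the filial tissues. All 3 suspensor arrays were above the hilum, epidermis and outer integument arrays, and of the coat regions only endothelium and inner integument exceeded the suspensor. For LAX11 the coat minus filial difference was −2.56 ± 0.24. For endosperm against the mean of embryo proper and suspensor, AUX22 missed the threshold (−1.48 ± 0.53, limma adjusted p = 0.0512). It was called without embryo proper replicate 2 (−1.82, adjusted p = 0.0128), suspensor replicate 1 (−1.63, 0.0318) or endosperm replicate 3 (−2.07, 0.0143), and was −0.66 (adjusted p = 0.422) without endosperm replicate 1. Of these arrays 2 of 3 in endosperm and 3 of 6 on the other side were below background. With those 2 endosperm arrays set at background and the other side left as measured, AUX22 was 1.18-fold lower in the endosperm. Against the suspensor alone the endosperm was at least 6.30-fold lower on the same floor, while endosperm and embryo proper, both mostly below background, cannot be ordered.

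Whole seed exceeded leaf for AUX22 by 3.03 ± 0.76 (8.14-fold, no overlap) and for LAX11 by 0.34 ± 0.51 (1.27-fold, overlapping). Seeds and leaves were both ground and extracted with the same reagent, while the captured tissues were extracted with another kit, so levels of captured and ground samples also differ by preparation.

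The wider auxin pathway was sparsely named on the array. Of 43 gene symbols in the RefSeq table that matched the list of auxin genes by role, 9 had a probe set that the annotation ties to 1 gene. They are the influx carrier LAX11 (1 of 15 LAX genes), the efflux carrier PIN2A, the receptors AFB3B and TIR1C, the Aux/IAA genes AUX22, AUX28 and GH1, and ADR11 and ADR12, soybean transcripts known for falling after auxin treatment. No gene for response factors, conjugating enzymes or synthesis was among them. All 9 were tested.

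In endosperm against the mean of embryo proper and suspensor, 3 of the 7 genes other than the members were lower and 1 higher, against 19.2% of all tested probe sets called. The median difference of these 7 was −1.60, against 0.16 over all tested probe sets. That median is the value of AUX28, which was below background on every endosperm and suspensor array, so its size is not measured. With the endosperm arrays set at background, neither AUX28 nor PIN2A was lower there. GH1 had 605.5, 1199.9 and 520.4 in the endosperm, against 11904.5 to 13154.2 in the embryo proper and 10427.3 to 13297.8 in the suspensor. It fell 16.8-fold (−4.07 ± 0.25, limma adjusted p = 1.0e-10), and leaving out any 1 array kept the call. A second GH1 probe set also fell, at least 2.96-fold, and the remaining tested one, mostly below background, was at 0.40 (adjusted p = 0.58).

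The receptor gene TIR1C fell 3.32-fold in the endosperm, with 444.7 to 677.4 there against 1162.3 to 3154.3 in embryo proper and suspensor (−1.73 ± 0.24, limma adjusted p = 1.1e-05). ADR11 was at least 2.20-fold lower, with the 2 endosperm arrays below background set there, and ADR12 was 2.61-fold higher, but both calls ended without endosperm replicate 1 (−1.76, adjusted p = 0.0849, and 0.76, adjusted p = 0.169), an array of high background. The ADR11 call also ended without endosperm replicate 2 (−1.93, adjusted p = 0.0675), while the second ADR11 probe set, below background on all 3 endosperm arrays, was at least 3.79-fold lower. AUX28 (−1.60, adjusted p = 0.0563) and PIN2A (−1.53, adjusted p = 0.0672) were below background on all endosperm arrays and missed the threshold. Each passed without certain single arrays, AUX28 without suspensor replicate 1 (−1.80) or endosperm replicate 2 (−2.12), and PIN2A without suspensor replicate 3 (−1.80) or endosperm replicate 3 (−2.16). AFB3B was at −0.31 ± 0.30 (adjusted p = 0.50). In the endosperm, where LAX11 was brightest, AUX22 and AUX28 were thus at or near background and GH1 was far below its embryo level. Low AUX22 and AUX28 were not particular to the endosperm. AUX22 was also below background on every embryo proper array, where GH1 averaged 12609. AUX28 was also below background on every array of suspensor, endothelium, epidermis, inner integument and outer integument.

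Between embryo proper and suspensor, 2 of the 7 genes were called, against 23.1% of tested probe sets, a similar share. Both are receptor genes and rose in the embryo proper. AFB3B averaged 17762 ± 1931 in the embryo proper and 7145 ± 1998 in the suspensor (SD, n = 3 each), 2.54-fold (limma adjusted p = 0.00555). A second AFB3B probe set, mostly below background, was at −0.09 (adjusted p = 0.95). TIR1C was 2.13-fold higher (limma adjusted p = 0.00489) and slipped under 2-fold without embryo proper replicate 3 (0.99 on the log2 scale). None of the other 5 genes was called in the main setting, though ADR11 (1.73, adjusted p = 0.0723) was called without suspensor replicate 1 (2.49, adjusted p = 0.00977) and its second probe set rose 5.13-fold (adjusted p = 8.5e-05). The median of the 7 was 1.09, against 0.07 over all tested probe sets. Scaling to equal medians of detected probe sets moved the overall median to 0.30, and the share of calls that were higher in the embryo proper moved to 66.2% from 54.8%.

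In the seed coat against the filial tissues, ADR11 rose at least 9.67-fold, with the 3 filial arrays below background set there (limma adjusted p = 1.5e-07) and TIR1C 2.07-fold (adjusted p = 1.2e-05), 2 of the 7 with none lower, against 21.5% of tested probe sets called. The TIR1C estimate fell just short of 2-fold without hilum replicate 2 (1.00) or inner integument replicate 1 (0.98). In whole seed against leaf GH1 was 2.44-fold higher (limma adjusted p = 0.0156, 13.2% called), 1 of 7, and lost its call without any 1 of the 4 arrays (adjusted p = 0.0775 to 0.11, with 1 array left on a side). A second GH1 probe set was at 0.70 (adjusted p = 0.466).

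**Figure D3:**
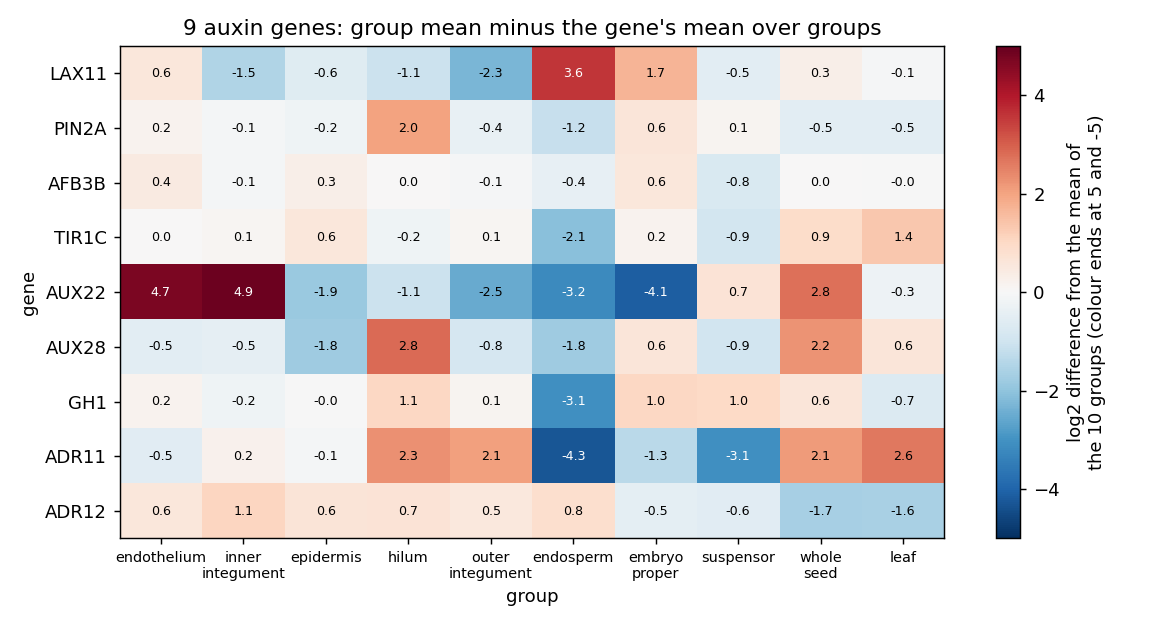
The 9 auxin genes by group: each cell is the gene's group mean of log2(signal + 16) minus its mean over the 10 groups. LAX11 is highest in endosperm, AUX22 in endothelium and inner integument, and AUX28 in hilum, while GH1, TIR1C and ADR11 are lowest in endosperm.

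Of the Aux/IAA genes, AUX28 and GH1 were called higher in the hilum than in the other coat regions. AUX22 was low in the hilum only against endothelium and inner integument. AUX28 was above background in the hilum (457.1 and 1128.2) and on none of the 8 other coat arrays (4.5 to 133.9). It rose at least 3.98-fold in the hilum against the mean of the other 4 regions (limma adjusted p = 0.000625). The AUX22 difference was −2.38 on the log2 scale, with endothelium (mean 27909) and inner integument (31968) among the other regions. The hilum mean of AUX22 (497.3) was above those of epidermis (315.7, arrays overlapping) and outer integument (186.85). GH1 was above background in every region and 2.05-fold higher in the hilum (limma adjusted p = 0.0187), while its other tested probe sets were not called there (1.08, adjusted p = 0.106, and 0.69, adjusted p = 0.498). PIN2A had 509.2 and 366.9 in the hilum, against 26.4 to 164 in the other regions (at least 2.38-fold, with the 7 of 8 other arrays below background set there). It passed the background filter through the hilum alone, so this difference is a description without a test. Counting PIN2A, 3 of 7 met the call rule as higher and none as lower, against 9.09% of tested probe sets called. PIN2A could be counted only because it was high in the hilum, so this count is not a result about the genes. The median of the 7 was 1.04, against 0.04 over all. It includes PIN2A and is likewise not a result about the genes. ADR11 missed the threshold (1.88, adjusted p = 0.0826), but its second probe set rose 3.82-fold in the hilum (adjusted p = 0.00143). With 2 arrays a region these calls are narrow. AUX28 lost its call without hilum replicate 2 (3.10, adjusted p = 0.0626). GH1 lost its call without either hilum array (0.93 and 1.14, adjusted p = 0.254 and 0.132), endothelium replicate 1 (1.00) or inner integument replicate 2 (0.91). The PIN2A difference was 1.86 to 2.38 when single coat arrays were left out, and met the call rule only without outer integument replicate 2. None of the 7 was called in the endothelium or inner integument, against 6.53% and 18.8% of tested probe sets in those comparisons. The lowest adjusted p there was 0.167 (ADR11, endothelium).

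The named genes whose group means ran most like each member were taken by Pearson's r over the 10 group means, among 850 genes with a symbol beyond a locus number. The groups share arrays, scale and preparation, and r is a description. For LAX11 they were SGF14f, a 14-3-3 protein gene (r = 0.926), CYSP2 (0.906), MYB52 (0.904), the calcium-dependent protein kinase gene CDPK-BETA (0.848) and TSA (0.846). SGF14f had 10650.2 to 16906.3 in the endosperm, 4470.8 to 5845.9 in the embryo proper and 733.3 to 3285 on the other arrays. Endosperm and embryo proper thus led as for LAX11, but the order below them differed. Its hilum mean (2244) was near its endothelium mean (2227), and its lowest mean was in the epidermis (904.4). CYSP2 had 362.2 to 1159.9 and CDPK-BETA 491.3 to 1441 in the endosperm, above every other array (at most 261 and 249.3). Both were below background on every coat array (at most 115.9 and 132.7), so their r rests partly on levels that are not measured.

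For AUX22 the most similar were CDPK-GAMMA (r = 0.968), CAT1 (0.911), the cytosolic glutamine synthetase gene GS1-GAMMA (0.909), the sugar exporter gene SWEET13 (0.906) and HPPD, which acts in tyrosine breakdown and tocopherol synthesis (0.905). GS1-GAMMA had 6876.5 to 11282.4 in the endothelium and 36971.8 to 39634.8 in the inner integument. SWEET13 had 1353.9 to 1456.3 in the endothelium and 5457.9 to 6094.7 in the inner integument. Both were brighter in the inner integument, whereas HPPD, like AUX22, had overlapping signals in the inner layers (12627.6 to 15866.2 in the endothelium and 11566.1 to 14318.4 in the inner integument). LAX11 and AUX22 correlated with each other at r = −0.302 over the 10 group means.

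**Figure D4:**
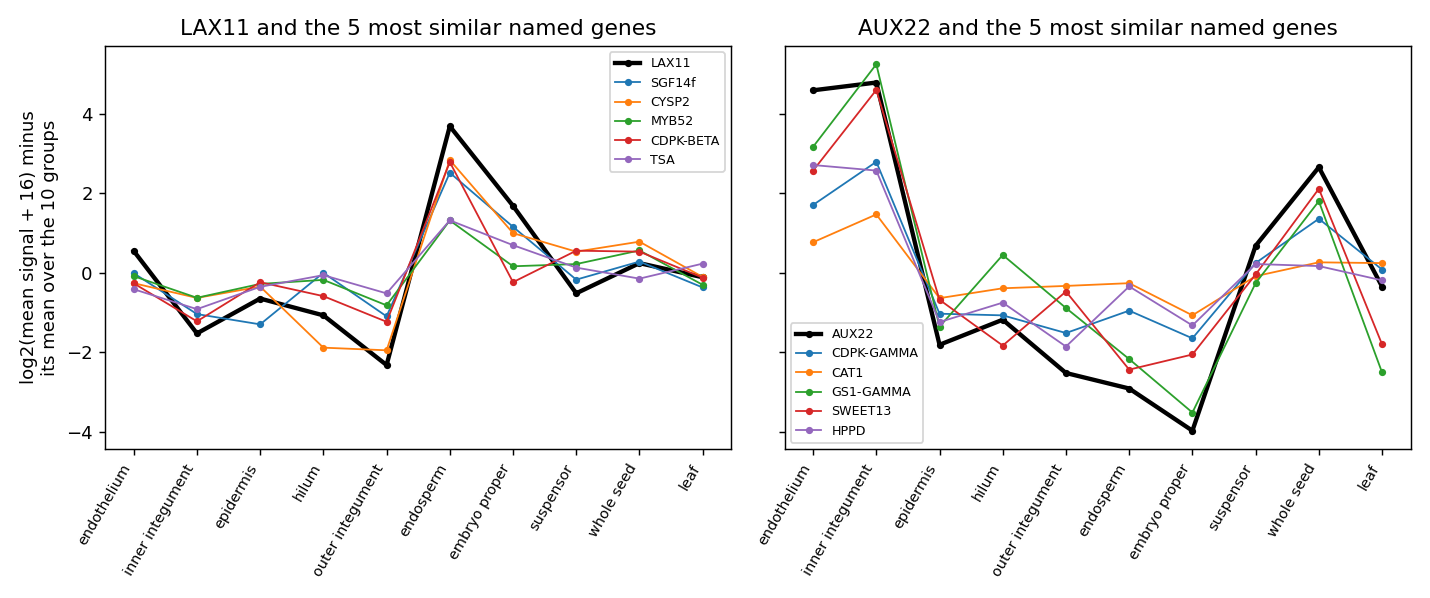
Group profiles of LAX11 (left) and AUX22 (right), in black, with the 5 named genes most similar by Pearson's r over 10 group means, as log2(mean signal + 16) minus the gene's mean over groups. The LAX11 set peaks in endosperm and the AUX22 set in endothelium and inner integument.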

How the data were processed

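The authors deposited linear intensities, with GCOS 1.3 listed in the submitters' processing notes and the probe summarisation not given in the sources. Their mean, trimmed by 2% at each end, was 500.05 to 500.07 on all arrays, and no further scaling was applied. Of 61170 probe sets, 37593 for soybean were analysed, 23350 for pathogens gave the background, and 227 others were not used. Testing required signals above background throughout 1 or more groups (25686 passed, both members included). Log2(signal + 16) was fitted with limma 3.58.1 in R 4.3.3 (1 mean per group, eBayes with a trend, 13 residual degrees of freedom), with 2-sided contrasts adjusted over all tested probe sets. The fit was tested on simulated data. The platform annotation gave 8677 soybean probe sets 1 gene each, and no coordinates are given since the files name no build. Probe sets may also bind transcripts of near-identical duplicated genes, which was not tested. Auxin genes were matched by symbol and role, with the brightest probe set per gene in the counts. Every Aux/IAA and influx gene is named, and up to 2 called genes per comparison for each other role. The 5 most similar genes had the highest r. Members, lists and contrasts were chosen with earlier results of these data known, and contrasts between single neighbouring groups after the values were seen. Alternatives were offsets of 1 and 64, other filters and scalings, array weights, a fit without trend, fits of fewer groups, a replicate block and leaving out arrays.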

Additional observations from a re-analysis of the deposited data

How the results depend on the processing

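Over 18 member differences and 408 alternative settings, none changed sign on a called value, and 401 stayed within 1 replicate SD or on the same side of the threshold, including all 204 for LAX11. The other 7 concern AUX22 in endosperm against the mean of embryo proper and suspensor, which passed with an offset of 64 (−1.36), a filter at 2 times background (−1.48), quantile normalization (−1.76) and the replicate block (−1.48, adjusted p = 0.0459). Leaving out single arrays gave −2.07 to −0.66. Of all 9 auxin genes, the members included, 5 were called in that comparison (4 of 7 without the members; LAX11 was selected on it), and 8 under quantile normalization, 3 with only its groups fitted, 3 without both arrays of highest background, and 3 to 7 without single arrays. In whole seed against leaf 2 were called, 1 with the mean of a gene's probe sets and 0 to 1 without single arrays, where a side keeps 1 array assumed to vary like the other groups. In the hilum 4 were called, 2 with an offset of 1 and 0 to 4 without single arrays. PIN2A, 1 of those 4, passed the background filter through the hilum alone. The highest counts were 3 in whole seed against leaf, with array weights, and 5 in the hilum, with an offset of 64. The replicate block changed no other member call. Replicate numbers were not taken as pairs. Between groups of 2 arrays, both replicate numbers necessarily give the same r, and each is counted. So counted, with 0.138 for whole seed and leaf at both numbers, 7 of 93 same-numbered pairs from different groups had correlated deviations above 0.1. Of those, 5 were among the 9 pairs of embryo proper, suspensor and endosperm (r −0.0587 to 0.263), where an array correlated best with its own number in 12 of 18 cases. LAX11 was brightest in replicate 2 and dimmest in replicate 3 of each of these tissues. The causes were not tested. A fit of the 19 captured arrays alone was added after seeing the data. Each gene has 1 probe set, so no second probe set checks the member values.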
